A study of Homo sapiens with 5 samples.

Results

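The 45 G2 and mitosis genes described here are cyclins, kinases, checkpoint proteins, kinetochore subunits, spindle motors and cytokinesis factors that cycling cells use to enter and complete mitosis. They were chosen by name, every probe of each gene was taken, and older symbols of the array annotation (CDC2 for CDK1, DLG7 for DLGAP5, KNTC2 for NDC80) were counted. All 45 genes were measured, through 67 of the 19105 probes tested, among 11041 genes in all. The series compared K562 cells, an established human leukaemia line derived from chronic myeloid leukaemia, that carried a stable, doxycycline-inducible (Tet-on) short hairpin RNA against JMJD1B (sh-JMJD1B, 3 arrays) or a control hairpin (sh-CTL, 2 arrays). JMJD1B, now named KDM3B, is a histone H3 lysine 9 demethylase, and the series was set up to screen for its target genes. Both groups received doxycycline at 1 µg/ml for 48 h, so the inducer itself was shared. The serum percentage was also the same in both groups. How many hairpins or clones stand behind each group, and whether replicates were separate cultures, is not said in the labels. The p-values thus measure only how far these arrays differ, which may be technical, and a difference between stable lines cannot be told apart from the knockdown. The level of JMJD1B was not analysed here, so the groups are those of the labels.

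In the mammalian cell cycle, transcripts of this kind accumulate in G2 and mitosis and are repressed in quiescent and G1 cells. The MuvB core binds a promoter element called the cell cycle genes homology region (CHR). It represses with the pocket proteins of the DREAM complex and activates with B-MYB and FOXM1, while NF-Y at CCAAT boxes supports activation. Cyclin B with CDK1 then drives entry into mitosis, the Aurora and Polo-like kinases build the spindle, and the anaphase-promoting complex (APC/C) ends mitosis by marking cyclin B and securin for destruction.

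The G2 and mitosis genes were slightly higher in the knockdown. Of the 45 genes, 41 had a positive difference, against 46.8% of all genes tested. Their median difference was 0.16 on the log2 scale, and that of all genes was -0.0087. AURKB, NDC80, ZWINT, KIF11, CDCA8 and BUB1 passed the test as higher, which is 6 of 45 genes where 2.56% of all genes were called higher. No member was called lower in the limma fit, where 3.7% of all genes were, and 0 were lower at an unadjusted p under 0.05, where 13.9% of all genes were. At that unadjusted level 26 members were higher, against 10.1% of all genes. On 31 members every knockdown array lay above both control arrays (17.9% of all genes), and on 0 members every knockdown array lay below both (23.9% of all genes). In these bulk samples, a change in the share of cells in G2 and mitosis and a change in these RNAs per cell cannot be told apart.

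Levels are log2(signal + 16) of the bead intensity after quantile normalization, and differences are knockdown minus control ± standard error (n = 3 and 2) with adjusted p-values from limma. The brightest probe stands for a gene. No background was subtracted, so the change of dim genes is understated. The differences of the members ran from -0.08 to 0.48. By array, the median member stood 0.13, 0.17 and 0.16 above the control mean on knockdown replicates 1, 2 and 3, and at 0.02 and -0.02 on control replicates 1 and 2. The number of members above the control mean was 40, 42 and 44 on the knockdown arrays and 29 and 16 on the control arrays. The median member was thus above the control mean on each knockdown array. The control values mirror each other because they are centred on their own mean. All knockdown arrays share that reference, so they are not independent checks of the shift.

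**Figure D1:**
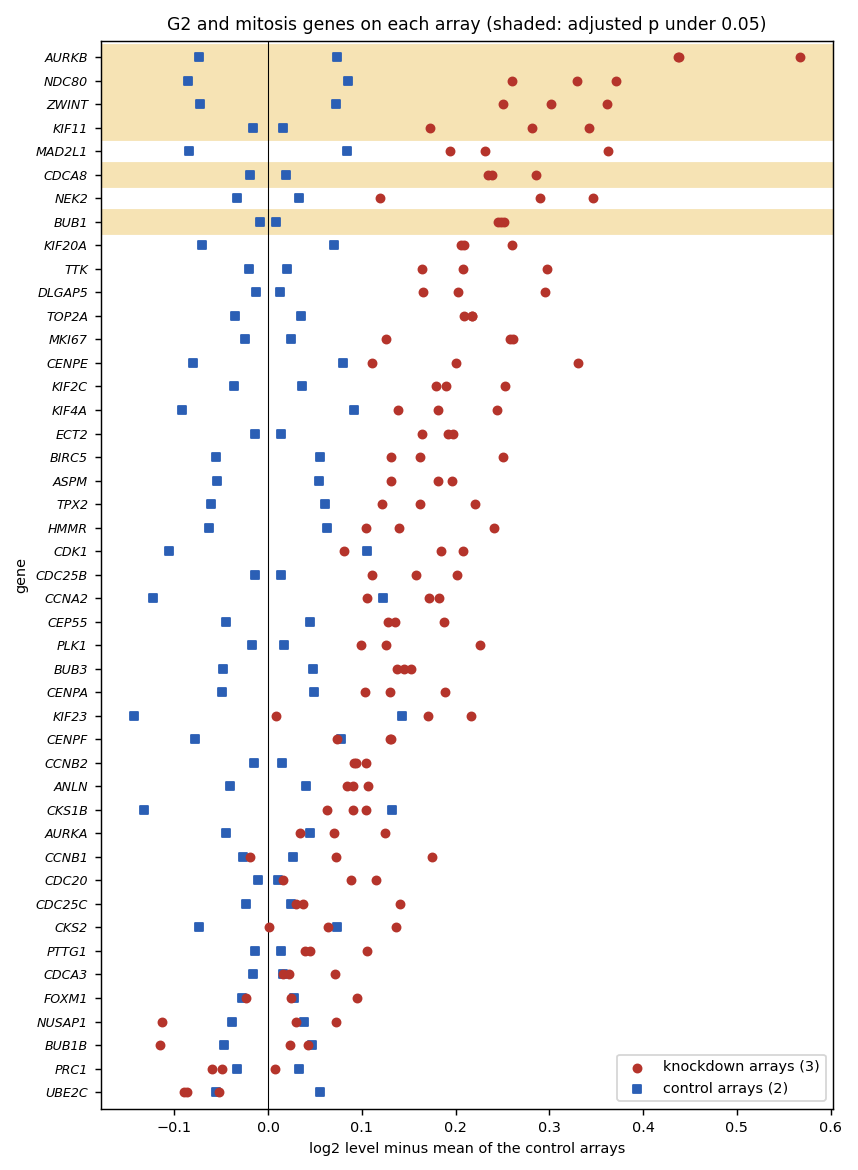
Level of each of the 45 G2 and mitosis genes on each array (rows), as log2 level minus the mean of the control arrays (x axis); circles are the 3 knockdown arrays, squares the 2 control arrays, rows are ordered by the difference, and shaded rows passed the limma test at an adjusted p under 0.05. For 31 genes every knockdown point lies right of both control points. The groups overlap in the other rows, which include CDK1 and CCNA2 and are not only the lowest.

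The mitotic kinases and passenger proteins held 3 of the 6 calls among 8 genes (2.56% of all genes were called higher). All 8 kinase and passenger genes had positive differences (46.8% of all genes), with a median of 0.24. AURKB, the Aurora kinase of the chromosomal passenger complex that corrects faulty kinetochore attachments, had levels of 10.63, 10.76 and 10.63 on the knockdown arrays, against 10.27 and 10.12 on the control arrays. Its groups were well apart, and its difference of 0.48 ± 0.07, a 1.40-fold rise, was the largest of the members (adjusted p = 0.0051). CDCA8 (borealin), which helps to place that complex on chromosomes, had 10.59, 10.64 and 10.60 in the knockdown and 10.38 and 10.34 in the control. This 1.19-fold rise (0.25 ± 0.06, adjusted p = 0.036) also left no overlap. BUB1, a checkpoint kinase that recruits the passenger complex to centromeres, read 11.44, 11.45 and 11.45 on the knockdown arrays and 11.21 and 11.19 on the control arrays. Its arrays were very close within each group, and it rose by 0.25 ± 0.06 (adjusted p = 0.035).

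TTK (MPS1), the kinase that starts checkpoint signalling at kinetochores, had levels of 11.58, 11.71 and 11.62 in the knockdown and 11.43 and 11.39 in the control. The groups did not overlap, but the difference of 0.22 ± 0.06 missed the threshold (adjusted p = 0.075). NEK2, a centrosome kinase, differed by 0.25 ± 0.08 (adjusted p = 0.088). PLK1, the Polo-like kinase of spindle assembly and mitotic exit, differed by 0.15 (adjusted p = 0.21), and AURKA, the Aurora kinase of the spindle poles, by 0.08 (adjusted p = 0.53). BIRC5 (survivin), another passenger subunit, read 10.48, 10.51 and 10.60 in the knockdown and 10.40 and 10.29 in the control. That difference of 0.18 ± 0.07 did not pass (adjusted p = 0.15), although the groups were separate.

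The centromere and kinetochore genes held 2 calls among 5 genes (2.56% of all genes were called higher), with a median difference of 0.21. NDC80 (HEC1), the subunit that gives its name to the complex by which kinetochores grip microtubules, had raw signals of 2255, 1922 and 2017 in the knockdown and 1457 and 1697 in the control. Its normalized level averaged 10.99 ± 0.06 over knockdown arrays and 10.67 ± 0.12 over control arrays (SD, n = 3 and 2). The lowest knockdown array lay above the highest control array, and the 1.25-fold rise passed the test (0.32 ± 0.07, adjusted p = 0.030). ZWINT, which links the outer kinetochore to the RZZ checkpoint complex, had 10.33, 10.38 and 10.44 in the knockdown and 10.15 and 10.01 in the control. It rose 1.24-fold without overlap (0.31 ± 0.07, adjusted p = 0.031). CENPE, a kinesin that carries chromosomes to the metaphase plate, read 10.80, 10.58 and 10.67 in the knockdown and 10.55 and 10.39 in the control, a difference of 0.21 ± 0.08 that did not pass on this probe (adjusted p = 0.16). CENPA, the histone H3 variant of centromeres, differed by 0.14 (adjusted p = 0.23), and CENPF, a large protein of the outer kinetochore, by 0.11 (adjusted p = 0.37).

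Partner subunits of both complexes were drawn from a list of other kinetochore and spindle genes. SPC25 had levels of 8.82, 8.69 and 8.62 in the knockdown and 8.34 and 8.23 in the control. It rose 1.34-fold, by 0.43 ± 0.07 (adjusted p = 0.010). NUF2, the direct partner of NDC80, had 10.74, 10.81 and 10.80 in the knockdown and 10.45 and 10.56 in the control, a rise of 0.27 ± 0.06 (adjusted p = 0.035), while its dimmer probe differed by 0.15 (adjusted p = 0.32). NDC80, NUF2 and SPC25 were thus called with all 5 arrays. NUF2 lost its call with any 1 array left out (adjusted p of up to 0.32 over all settings), and SPC25 lost it without control replicate 2 (adjusted p = 0.083) and with the pooled background subtracted. The remaining subunits, SPC24 and INCENP, lie outside the naming rule and were added after their values were seen. SPC24 had 9.48, 9.63 and 9.51 in the knockdown and 9.45 and 9.40 in the control, a difference of 0.12 ± 0.06 (adjusted p = 0.34). INCENP, the scaffold of the passenger complex, had 9.0, 8.93 and 8.90 in the knockdown and 8.79 and 8.99 in the control, and its groups overlapped (0.05, adjusted p = 0.74).

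**Figure D2:**
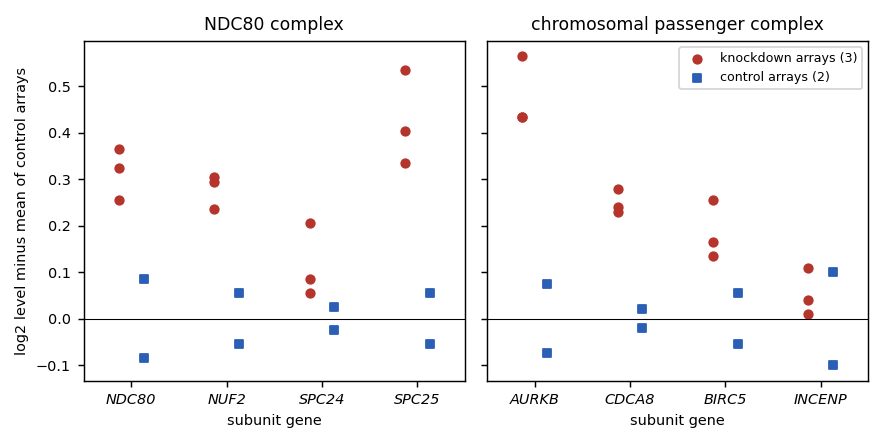
Subunit genes of the NDC80 complex (left) and the chromosomal passenger complex (right), with log2 level minus the mean of the control arrays on the y axis; circles are the 3 knockdown arrays and squares the 2 control arrays. NDC80, NUF2, SPC25, AURKB and CDCA8 passed the limma test, while SPC24, BIRC5 and INCENP did not, and the groups overlap for INCENP.

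Promoter sequences of the called members, with those of CCNB2 and PLK1 as well-studied members that were not called, are shown to place the elements named above. Each line gives the 120 bases before the annotated start, 5′ to 3′ on the gene's strand, from RefSeq on build GRCh38.p14 (the first listed promoter where a gene has several). Capitals mark the CHR hexamer TTTGAA or the pentamer CCAAT, searched on both strands, so that TTCAAA and ATTGG are their reverse forms.
AURKB (chr17:8210226-8210345, minus strand): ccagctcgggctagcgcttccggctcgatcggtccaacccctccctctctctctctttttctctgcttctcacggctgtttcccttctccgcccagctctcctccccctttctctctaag
BUB1 (chr2:110678064-110678183, minus strand): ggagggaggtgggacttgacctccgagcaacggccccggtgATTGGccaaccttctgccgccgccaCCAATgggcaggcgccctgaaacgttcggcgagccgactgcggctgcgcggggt
CDCA8 (chr1:37692396-37692515, plus strand): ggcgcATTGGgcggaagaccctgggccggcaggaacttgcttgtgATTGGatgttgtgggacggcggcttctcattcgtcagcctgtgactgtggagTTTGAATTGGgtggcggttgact
KIF11 (chr10:92593010-92593129, plus strand): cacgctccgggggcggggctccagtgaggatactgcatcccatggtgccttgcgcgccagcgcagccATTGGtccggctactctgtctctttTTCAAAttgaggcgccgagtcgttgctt
NDC80 (chr18:2571437-2571556, plus strand): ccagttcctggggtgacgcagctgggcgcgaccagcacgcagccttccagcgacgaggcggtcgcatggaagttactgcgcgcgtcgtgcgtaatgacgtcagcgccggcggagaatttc
ZWINT (chr10:56361260-56361379, minus strand): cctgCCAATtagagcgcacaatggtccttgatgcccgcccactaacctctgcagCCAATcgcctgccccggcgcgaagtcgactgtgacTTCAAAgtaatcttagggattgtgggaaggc
CCNB2 (chr15:59105026-59105145, plus strand): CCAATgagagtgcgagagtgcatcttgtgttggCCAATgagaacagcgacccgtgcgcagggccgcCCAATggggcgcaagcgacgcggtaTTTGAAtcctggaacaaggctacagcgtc
PLK1 (chr16:23678769-23678888, plus strand): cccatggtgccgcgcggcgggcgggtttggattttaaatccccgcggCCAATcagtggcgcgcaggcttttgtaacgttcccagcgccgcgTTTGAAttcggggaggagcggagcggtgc

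A CHR hexamer and a CCAAT pentamer both stand in the stretches of CDCA8, KIF11, ZWINT, CCNB2 and PLK1, and in CDCA8 one of the CCAAT matches overlaps the hexamer. BUB1 holds 2 CCAAT matches and no hexamer there. The AURKB stretch holds neither, and the CCAAT matches of AURKB begin 153 and 129 bases before a start. In NDC80 a hexamer begins 3 bases before the start and runs across it, outside the printed stretch. Promoters of 250 bases before to 50 after the start were matched for 38 of the 45 genes, as 49 promoters, and BUB3, UBE2C, FOXM1, TPX2, BIRC5, AURKA and TTK had none in the table. TTTGAA was present in 65.3% of the member promoters and in 15.2% of all 35116 promoters. CCAAT was present in 79.6% against 34.6%, and both in 57.1% against 5.9%. A hexamer beginning within 60 bases before the start was found in 42.9% of member promoters and in 2.98% of all. A match is only a run of letters, not a bound site. Among the members, the median difference was 0.15 over 28 genes with the hexamer and 0.21 over 10 genes without it.

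**Figure D3:**
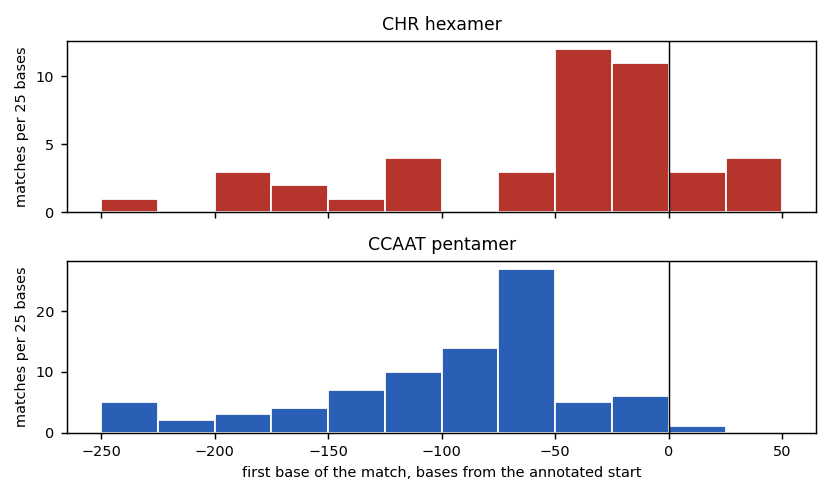
Positions of motif matches in the 49 promoters of 38 G2 and mitosis genes, counted per 25 bases by the first base of the match relative to the annotated start (x axis, bases; vertical line at the start), for the CHR hexamer (top) and the CCAAT pentamer (bottom). Of 44 hexamer matches, 23 begin within 50 bases before the start, and of 84 CCAAT matches, 51 begin between 51 and 120 bases before it.

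Among the 11 spindle motors and microtubule proteins, 9 had a positive difference and the median was 0.17. KIF11 (Eg5), the motor that pushes spindle poles apart, had levels of 10.01, 9.90 and 10.07 in the knockdown and 9.71 and 9.74 in the control, a rise of 0.27 ± 0.07 (adjusted p = 0.049). Its dimmer probe read 9.54, 9.45 and 9.39 in the knockdown and 9.17 on each control array, a rise of 0.29 ± 0.06 (adjusted p = 0.031). Both KIF11 probes were thus called, with no overlap. KIF20A, a kinesin of the central spindle, had 11.63, 11.58 and 11.58 in the knockdown and 11.44 and 11.30 in the control (0.23 ± 0.06, adjusted p = 0.077). KIF2C (MCAK), a kinesin that takes microtubules apart at centromeres, had 10.85, 10.79 and 10.78 in the knockdown and 10.56 and 10.63 in the control (0.21 ± 0.06, adjusted p = 0.081). DLGAP5 (HURP), which stabilises kinetochore microtubules, had 11.38, 11.51 and 11.42 in the knockdown and 11.23 and 11.20 in the control (0.22 ± 0.06, adjusted p = 0.075). None of these overlapped between groups, and none passed.

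Further members of this class were smaller or mixed. KIF4A, a chromosome-bound kinesin, differed by 0.19 (adjusted p = 0.16), TPX2, the activator of Aurora A, by 0.17 (adjusted p = 0.17), and ASPM, a spindle pole protein, by 0.17 (adjusted p = 0.15). KIF23, the kinesin of the centralspindlin complex, had levels of 9.53, 9.69 and 9.74 in the knockdown and 9.67 and 9.38 in the control, and its groups overlapped (0.13 ± 0.09, adjusted p = 0.46). PRC1, which bundles the microtubules of the midzone, had 12.64, 12.63 and 12.69 in the knockdown and 12.65 and 12.72 in the control, a difference of -0.03 (adjusted p = 0.80). NUSAP1, a microtubule binder near chromatin, had 12.46, 12.64 and 12.60 in the knockdown and 12.53 and 12.61 in the control, a difference of -0.0037 (adjusted p = 0.99). Both overlapped between groups.

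The cyclins, CDK1 and its activators had small differences, and 0 of 9 passed in limma. At an unadjusted p under 0.05, 1 was higher, near the share of all genes (10.1%). Every knockdown array lay above both control arrays for 3 of the 9 (17.9% of all genes). The groups overlapped for CDK1, CCNA2, CCNB1, CKS1B, CKS2 and FOXM1. All 9 differences were positive, with a median of 0.09. CDK1, the kinase that drives entry into mitosis, differed by 0.16 (adjusted p = 0.27), and its partners CCNB1, CCNB2 and CCNA2 by 0.08, 0.10 and 0.15 (adjusted p = 0.58, 0.37 and 0.29). CDC25B, a phosphatase that activates CDK1, differed by 0.16 (adjusted p = 0.16). The CDK-binding subunits CKS1B and CKS2 differed by 0.09 and 0.07, and FOXM1, the transcription factor of G2 genes, by 0.03 (adjusted p = 0.82).

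The spindle checkpoint and APC/C genes were the most divided, with 5 positive and 2 negative differences among 7 genes and a median of 0.06. None was called by limma, and 2 were higher at an unadjusted p under 0.05, against 10.1% of all genes. MAD2L1 (MAD2), the checkpoint protein that holds back CDC20, had levels of 12.12, 12.25 and 12.08 in the knockdown and 11.97 and 11.80 in the control. The groups were separate, and the difference of 0.26 ± 0.08 did not pass (adjusted p = 0.077). BUB1B (BUBR1), which acts with MAD2 on CDC20, had 9.50, 9.36 and 9.52 in the knockdown and 9.53 and 9.43 in the control, with overlap (-0.02, adjusted p = 0.93). UBE2C, the ubiquitin-conjugating enzyme of the APC/C, had 7.70, 7.67 and 7.67 in the knockdown and 7.70 and 7.81 in the control (-0.08 ± 0.06, adjusted p = 0.53). Its probe was dim, with signals of 188 to 204 in the knockdown and 186 to 201 in the control, where the pooled background of undetected probes had a median of 124.0. BUB3, the partner of BUB1 and BUBR1, differed by 0.15 (adjusted p = 0.20). CDC20, the APC/C activator of metaphase, differed by 0.07 (adjusted p = 0.54), PTTG1 (securin) by 0.06 (adjusted p = 0.59) and CDCA3, a regulator of entry into mitosis, by 0.04 (adjusted p = 0.78).

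Of the 5 cytokinesis and chromosome scaffold genes all had positive differences, with a median of 0.18. All had separate groups with the knockdown higher (17.9% of all genes). None passed in limma, and 4 were higher at an unadjusted p under 0.05, against 10.1% of all genes. TOP2A, the topoisomerase that untangles sister chromatids, had levels of 13.22, 13.22 and 13.21 in the knockdown and 13.03 and 12.96 in the control. It came nearest to the threshold among the members not called (0.22 ± 0.06, adjusted p = 0.065). MKI67, the proliferation marker that coats mitotic chromosomes, differed by 0.21 (adjusted p = 0.093) on a probe detected on only 2 arrays. Its signals were 162, 175 and 171 in the knockdown and 139 and 131 in the control, near the background. ECT2, the activator of RhoA at the cleavage furrow, differed by 0.18 (adjusted p = 0.098), CEP55, an abscission protein, by 0.15 (adjusted p = 0.19) and ANLN (anillin) by 0.09 (adjusted p = 0.40).

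Of the 67 member probes, 10 were called higher (2.35% of all probes were) and 0 lower (2.72%), and 61 had positive differences (49.6%). On 42 of the probes every knockdown array lay above both control arrays (17.6% of all probes), and on 0 below both (20.2%). For 19 genes with several probes, the 2 brightest probes had the same sign in 84.2%, against 67.2% of 2841 such genes on the array. CDC25C, the phosphatase that removes the inhibitory phosphates of CDK1, showed the widest gap. Its brightest probe read 10.03, 10.02 and 10.13 in the knockdown and 10.01 and 9.97 in the control, a difference of 0.07 (adjusted p = 0.58). Its second probe read 9.66, 9.65 and 9.68 in the knockdown and 9.38 and 9.29 in the control, a rise of 0.32 ± 0.06 (adjusted p = 0.015), and its dimmest differed by 0.13 (adjusted p = 0.25). The probes thus differed in call, while the groups did not overlap on any of them.

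HMMR (RHAMM), a spindle pole protein, differed by 0.16 on its brightest probe, at 12.65, 12.75 and 12.61 in the knockdown and 12.45 and 12.57 in the control (adjusted p = 0.21). On its second probe it had 12.45, 12.52 and 12.46 in the knockdown and 12.28 and 12.16 in the control, a rise of 0.26 ± 0.06 (adjusted p = 0.047). CENPE was also called on its second probe, at 10.08, 10.07 and 10.15 in the knockdown and 9.85 and 9.86 in the control (0.25 ± 0.06, adjusted p = 0.042). With these, 9 genes had at least 1 called probe. Several probes give a gene more chances of a call, and the share of all genes under this rule was not counted. ZWINT went the other way: its second probe, at 9.63, 9.70 and 9.62 in the knockdown and 9.37 and 9.47 in the control, was not called (0.23 ± 0.06, adjusted p = 0.067). The sign differed between probes for BIRC5, KIF23 and NUSAP1. Their second probes gave -0.03, -0.08 and 0.09 (adjusted p = 0.81, 0.55 and 0.49), all with overlapping groups. That of BIRC5 read 7.84, 7.89 and 7.77 in the knockdown and 7.90 and 7.83 in the control, and KIF23 had 8.21, 8.15 and 8.15 in the knockdown and 8.31 and 8.18 in the control. NUSAP1 had 11.21, 11.19 and 11.17 in the knockdown and 11.19 and 11.01 in the control.

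**Figure D4:**
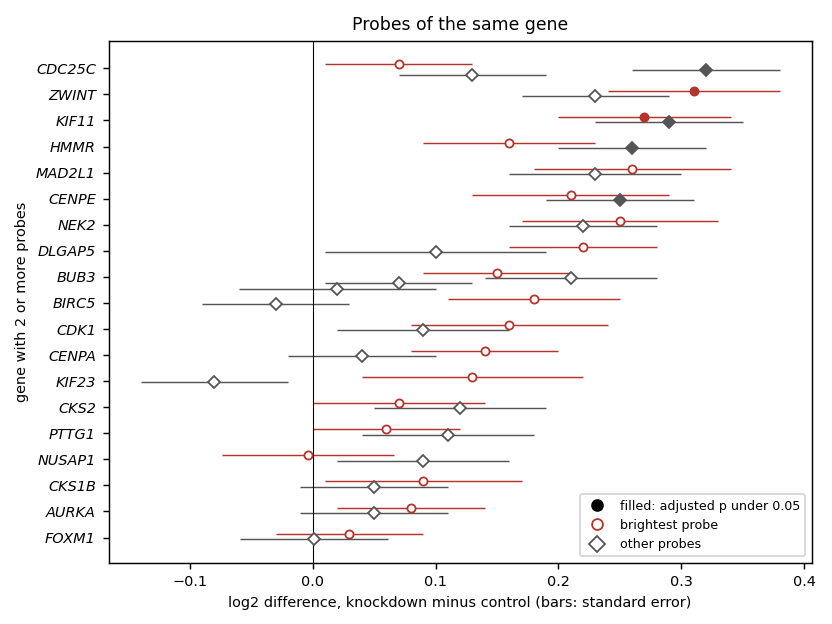
Log2 difference, knockdown minus control (x axis), of every probe of the 19 members with 2 or more probes (rows); circles are the brightest probe, diamonds the others, bars the standard error from limma, and filled symbols passed at an adjusted p under 0.05. For 16 genes all probes lie above 0, and BIRC5, KIF23 and NUSAP1 have probes on both sides.

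Neighbouring parts of the cell cycle machinery had lower medians than the 0.16 of the 45 members. The difference between lists was not tested. Of 131 measured genes in 7 lists of other cell cycle genes, 91 had positive differences (69.5%, against 46.8% of all genes). Their median was 0.08, against -0.0087 for all genes. Among them 6 were called higher and 1 lower, where 2.56% and 3.7% of all genes were. These genes were thus also shifted upward. The cyclin and checkpoint roles of the members had medians of 0.09 and 0.06, below the 0.10 of the spindle, condensin and G2 regulator lists. Other kinetochore and centromere genes (34 of 34 measured) had a median of 0.08 and 3 calls, SPC25, NUF2 and CENPW, a centromere subunit that rose 1.21-fold (adjusted p = 0.035). Other spindle and cytokinesis genes (24 of 25) had a median of 0.10, and TACC3, a spindle microtubule protein, rose 1.20-fold (adjusted p = 0.041). Condensin, cohesin and separase genes (18 of 21) had a median of 0.10 and no call in limma. At an unadjusted p under 0.05, 5 of them were higher and 1 lower, against 10.1% and 13.9% of all genes. The condensin subunits NCAPD3 and NCAPG2 each differed by 0.17 (adjusted p = 0.14 and 0.17).

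APC/C subunits and their inhibitor (13 of 17) had a median of -0.0038, with 6 positive and 7 negative differences and no call in limma. At an unadjusted p under 0.05, 2 were higher and 1 lower, against 10.1% and 13.9% of all genes. CDC26 and ANAPC10, the 2 with the smallest p, differed by 0.19 and 0.15 (adjusted p = 0.12 and 0.16). Among regulators of G2 entry (13 of 13), with a median of 0.10, CDKN3, a phosphatase that acts on CDKs, rose 1.20-fold (adjusted p = 0.032). MuvB, E2F and pocket protein genes (17 of 20) had a median of 0.03, and MYBL2 (B-MYB), MYBL1 and E2F8 were not measured. In this list RBBP4, a histone-binding subunit of MuvB, fell by 0.25 ± 0.06 (adjusted p = 0.037). Its other probes gave 0.09 and -0.10 (adjusted p = 0.45 and 0.43), so they did not share that call. Among G1 cyclins, CDKs and inhibitors (12 of 15), with a median of 0.05, CDKN2D (p19), an inhibitor of CDK4 and CDK6, rose 1.21-fold (adjusted p = 0.032). CENPW, TACC3, CDKN3, CDKN2D and RBBP4 each lost the call with any 1 array left out, and over all settings their adjusted p reached 0.16, 0.18, 0.14, 0.17 and 0.45.

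**Figure D5:**
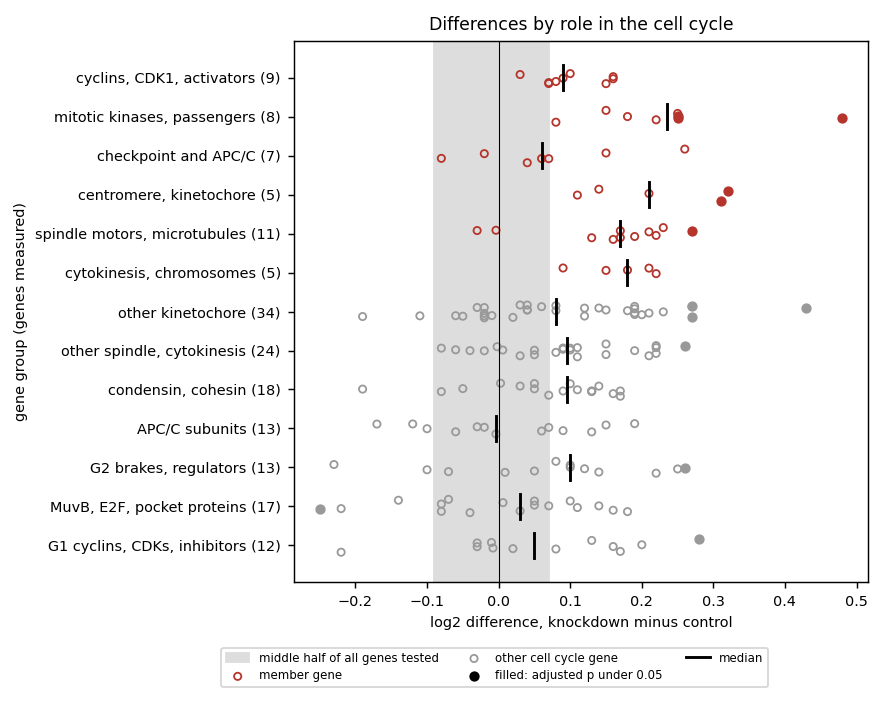
Log2 difference, knockdown minus control (x axis), of each gene by role (rows, number of genes measured in brackets); red circles are the G2 and mitosis genes, grey circles other cell cycle genes, filled symbols passed the limma test at an adjusted p under 0.05, vertical bars are medians, and the shaded band spans the middle quartiles (-0.09 to 0.07) of all 11041 genes. The median of every role of the G2 and mitosis genes is above 0, and that of the APC/C subunits is at about 0.

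The array medians of raw signal ran from 464.5 to 498.6 in the knockdown and from 455.6 to 458.0 in the control. Without normalization 791 probes were called higher and 153 lower, against 449 and 519 with it, and the median of all probes moved to 0.072. In that setting 13 members were called and the members' median was 0.25, or 0.17 above the median of all probes. All 45 differences were positive there, so UBE2C, PRC1, BUB1B and NUSAP1 turned sign with the scaling. Most of the 6 calls were easily lost: with any 1 knockdown array left out, AURKB was the only member called. Leaving out control replicate 1 or 2 leaves 1 control array. AURKB then differed by 0.56 and 0.41, and NDC80 by 0.24 and 0.41. The call of AURKB did not hold without control replicate 2.

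Of 15 markers of erythroid leukaemia cells such as K562, 13 were measured, with 4 positive and 9 negative differences. LMO2, HBZ and ALAS2 were lower in the knockdown, at 0.658, 0.677 and 0.704 times their control level (adjusted p = 0.00056, 0.0015 and 0.0024). GATA1 and KLF1 differed by 0.11 and 0.08 with separate groups and were not called (adjusted p = 0.36 and 0.48), and HBG1, HBG2, EPOR and TAL1 differed by -0.0031, 0.0054, 0.0088 and -0.02 with overlapping groups. On every array the signals of HBG1 and HBG2 lay near the highest of the labelled rows. Whether a change could still be read at that level was not tested, so HBG1 and HBG2 are not shown to be unchanged. HBA2, HBA1, HBE1 and TFRC differed by -0.19, -0.16, -0.15 and -0.11 and were not called (adjusted p = 0.19, 0.25, 0.39 and 0.34). The groups of HBA2 and TFRC were separate with the knockdown lower, and those of HBA1 and HBE1 overlapped. Of the 13 markers, 5 had separate groups with the knockdown lower and 2 with it higher (23.9% and 17.9% of all genes). Sums given here are of raw signal without normalization. The list's sum, in large part from HBG1 and HBG2 and so under the same limit, was 206855 to 216275 in the knockdown and 217601 to 220481 in the control. Markers of T cells (2 of 6 measured) summed to 3005 to 3114 in the knockdown and 2136 to 2404 in the control, nearly all of it from CD3D, which was higher (adjusted p = 0.012). CD2, the other T cell marker measured, differed by -0.18 with overlapping groups (adjusted p = 0.30). Epithelial markers (3 of 5) summed to 4844 to 5553 in the knockdown and 5787 to 5834 in the control, with EPCAM lower (adjusted p = 0.0042). Lists for B cells (2 of 5), monocytes (3 of 5) and fibroblasts (1 of 5) summed to at most 762, 859 and 286 in the knockdown and 687, 923 and 254 in the control, with no call. The part of these differences in the level of the G2 and mitosis genes was not tested.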

How the data were processed

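The values with sample names were deposited by the authors as linear bead intensity. The submitters' processing notes name GenomeStudio 2009.2. Its settings, any background step and the genome build were not given in the sources used here. A larger deposited table holds the same signals for 47321 probes with detection p-values, per the file headers. The names of its 5 signal columns match no sample, and these columns were not used as samples. Each of the 19144 labelled rows equals exactly 1 probe of that table, with the 5 signals compared in column order. Only 47 rows carry the ID of that probe, so IDs and detection p-values were taken through the signals. Under these IDs, Pearson's r between paired probes of 2294 genes with 2 probes was 0.428, and -0.0029 under the printed IDs (across genes, which are not independent replicates).

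Symbols came from the platform annotation and were updated through RefSeq. Probes with a detection p under 0.05 on at least 2 arrays were kept. Log2(signal + 16) values were computed from the deposited intensity, quantile normalized and fitted with group alone in limma 3.58.1 under R 4.3.3 (3 residual degrees of freedom), with Benjamini-Hochberg adjustment over 19105 probes and a threshold of 0.05. The number of arrays limits the precision (median standard error 0.07). Other normalizations, backgrounds, offsets, filters, variance options, probe summaries, a replicate block and leaving out each array were tried as alternatives.

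Members, roles and lists were chosen with earlier results of these data known. Values on every array are given for called members, the 6 next by p, those with a negative difference, and those whose probes differ in sign or call. Up to 4 called genes per other list are named, or the 2 with the smallest p.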

Additional observations from a re-analysis of the deposited data

How the results depend on the processing

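The count of 6 members called higher was 13 without normalization, 14 with the trend and robust options of limma and 15 with the mean of a gene's probes. It was 1 with normexp on the labelled probes, 0 with the pooled background subtracted and 1 with any 1 knockdown array left out. No member was called lower in any setting. With the trend and robust options, calls over all probes also rose, to 657 higher and 747 lower from 449 and 519. A total over the array was not counted for the mean of a gene's probes. The larger member counts are thus not shown to be particular to the members. The members' median of 0.16 was 0.19 with median scaling, 0.25 without normalization and 0.13 to 0.19 with 1 array left out. Over all probes, 791 were higher and 153 lower without normalization, 196 and 167 with normexp, 130 and 92 with the pooled background subtracted, and 176 to 239 and 131 to 216 with 1 array left out.

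The replicate numbers of the titles were also used as a replicate block, which gave 1 member called, and 194 higher and 145 lower probes over the array. Deviations of same-numbered arrays from their group means correlated at -0.219 and -0.091 over 19105 probes, so the numbers were not taken to pair the samples.

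AURKB kept its call in 16 of 18 settings, with differences of 0.41 to 0.56 and adjusted p-values of 0.00045 to 0.068. AURKB lost the call with the pooled background subtracted and without control replicate 2. NDC80 kept its call in 11 settings, BUB1 and CDCA8 in 10, and KIF11 and ZWINT in 9. Signs turned for 9 genes, none of them called on the turned value. With 1 array left out, BUB1B ran from -0.06 to 0.03, KIF23 from -0.01 to 0.28, NUSAP1 from -0.04 to 0.05, CKS1B from -0.05 to 0.21 and CKS2 from -0.007 to 0.14. NUSAP1 also gave 0.001 with cyclic loess, 0.03 with median scaling, 0.08 without normalization, 0.04 with the mean of probes and 0.09 with the next probe. PRC1 gave 0.001 with median scaling and 0.06 without normalization. BUB1B gave 0.05 without normalization and UBE2C gave 0.003 without normalization. The next probes of KIF23, BIRC5 and RBBP4 gave -0.08, -0.03 and 0.09. The causes were not tested.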
